A study of Mus musculus with 192 samples.

Results

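Ifit3, an interferon-induced antiviral gene, was listed in 34 of 92 single mouse embryonic fibroblasts (MEFs) that had received interferon-beta without an earlier treatment, and in none of the other 58. These 92 naive cells belong to a series of 96 naive and 96 pretreated cells. They were selected on their own measured Ifit3 peaks, that is, split by that listing, and all other genes were compared between the 34 cells with Ifit3 and the 58 without it. MEFs are connective-tissue cells cultured from mouse embryos. Every cell was of strain C57BL/6 and had 100 U/ml of interferon-beta (IFN-beta) for 1 h. The cells labelled Naïve-1h had no pretreatment, and the pretreated cells had one that the labels do not describe. RNA was read by single-cell start-site sequencing, in which each sequenced tag marks the 5′ end of a polyadenylated transcript. A naive cell was kept when its total tags reached 10% of the median of all cells of the series, which left out 4 of 96. A cell counted as having Ifit3 when its file listed at least 1 peak on the strand of the gene within 1000 bp of the annotated start. The labels name no animal, culture or plate for these cells. Cells are not replicates, so each set is 1 sample, no test between them was possible, and the differences have no replicate check.

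Interferon-beta binds a receptor on the cell surface and activates the kinases JAK1 and TYK2. A complex of transcription factors that holds STAT2 and IRF9 then binds interferon-stimulated response elements (ISRE) in the promoters of a large set of genes. Ifit3 is among the early targets in fibroblasts, and its protein works with other IFIT proteins that bind foreign RNA and limit viral translation.

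The letters upstream of the gene starts are shown because Ifit3 and 5 genes listed more often in the cells with it carry the core of this element there. The core searched was GAAA, any 2 bases and GAAA again, or TTTC, any 2 bases and TTTC for the other strand, and its matches are in capitals. Each sequence holds the 250 bases before the start of the gene, read 5′ to 3′ on its strand, from RefSeq on build GRCm38.p6. They lie at chr19:34583279-34583528 (+) for Ifit3, chr19:34607707-34607956 (+) for Ifit3b, chr19:34640639-34640888 (+) for Ifit1, chr11:49064213-49064462 (-) for Tgtp2, chr3:142530086-142530335 (+) for Gbp7 and chr5:92348890-92349139 (-) for Cxcl10. Positions of the tags, given further on, are on the older build mm9 and are not on the same scale.
Ifit3: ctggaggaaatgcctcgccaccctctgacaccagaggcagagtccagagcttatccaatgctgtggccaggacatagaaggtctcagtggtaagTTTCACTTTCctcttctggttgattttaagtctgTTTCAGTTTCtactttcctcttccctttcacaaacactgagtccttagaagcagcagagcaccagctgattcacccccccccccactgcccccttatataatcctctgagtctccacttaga
Ifit3b: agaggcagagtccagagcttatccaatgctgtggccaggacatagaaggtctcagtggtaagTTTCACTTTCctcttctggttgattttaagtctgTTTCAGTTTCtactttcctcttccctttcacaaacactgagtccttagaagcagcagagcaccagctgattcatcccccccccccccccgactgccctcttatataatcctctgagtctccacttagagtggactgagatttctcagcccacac
Ifit1: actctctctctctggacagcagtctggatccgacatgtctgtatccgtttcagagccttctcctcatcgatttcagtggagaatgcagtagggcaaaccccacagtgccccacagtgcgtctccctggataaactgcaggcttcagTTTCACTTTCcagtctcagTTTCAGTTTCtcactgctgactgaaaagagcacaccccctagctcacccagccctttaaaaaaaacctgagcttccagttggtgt
Tgtp2: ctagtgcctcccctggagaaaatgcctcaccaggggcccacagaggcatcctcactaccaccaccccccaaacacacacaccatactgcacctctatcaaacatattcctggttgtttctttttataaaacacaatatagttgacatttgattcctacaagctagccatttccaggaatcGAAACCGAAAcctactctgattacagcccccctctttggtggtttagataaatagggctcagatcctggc
Gbp7: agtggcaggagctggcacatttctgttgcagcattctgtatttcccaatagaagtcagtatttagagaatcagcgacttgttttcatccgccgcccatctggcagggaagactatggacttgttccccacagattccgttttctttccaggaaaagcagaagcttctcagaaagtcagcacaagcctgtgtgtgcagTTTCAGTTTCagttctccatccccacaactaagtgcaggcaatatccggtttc
Cxcl10: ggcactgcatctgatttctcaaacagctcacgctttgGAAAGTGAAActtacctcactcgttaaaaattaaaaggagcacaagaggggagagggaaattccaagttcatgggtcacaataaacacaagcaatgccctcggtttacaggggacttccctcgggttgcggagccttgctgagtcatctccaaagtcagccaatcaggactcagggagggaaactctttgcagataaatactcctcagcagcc

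Ifit3 and Ifit3b each held 2 matches, TTTCACTTTC and TTTCAGTTTC, which began 156 and 122 bases before the start of Ifit3 and 188 and 154 bases before that of Ifit3b. The same 2 words stood in the window of Ifit1, 104 and 85 bases before its start. Tgtp2 held GAAACCGAAA at 70 bases, Gbp7 held TTTCAGTTTC at 53 bases and Cxcl10 held GAAAGTGAAA at 213 bases before the start. Samd9l and Xaf1, also listed more often in the cells with Ifit3, held no match in this window. Usp18 was not matched in the table of promoters. Over all 32851 promoters of that table, 978 (2.98%) held at least 1 match, and 3.87% of the matched promoters of the 2917 genes compared further on did. Among the interferon-responsive genes compared further on, 27 of 33 were matched to a promoter and 14 of these (51.9%) held one. Among the 58 genes whose share of cells was at least 20 percentage points higher with Ifit3, 49 were matched and 9 (18.4%) held one. Without the genes of the interferon list, 3 of 38 (7.89%) did. These 3 include Ifit3b and Cxcl10, interferon targets that are not members of that list. A match is a description of letters and does not show binding.

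The values that chose the sets are given as a description. In the 34 cells with Ifit3, the deposited signal of its peak, in tags per 10000000 tags of the cell, was lowest at 255.3, had a median of 2406 and reached 19642.6. The lowest values just inside the rule were 255.3, 276.7 and 293.6, above the minimum of 200 at which peaks were called. A cell without Ifit3 is therefore a cell with no peak above that minimum and may still hold fewer tags. Scaled to the gene tags of the cell, the tags on the gene strand within 1000 bp of any annotated start, Ifit3 ranged from 47.04 to 3702 CPM (tags per 1000000 gene tags), with a median of 471. Some cells thus listed Ifit3 close to the calling minimum and others far above it. The total of the kept cell nearest to the depth threshold was 305066 tags, and the deepest cell left out had 36693.

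All 34 cells used the same start window of Ifit3, chr19:34657949-34658098 (mm9, + strand), which lies 4 bp from the annotated start. The 85 pretreated cells that passed the same depth filter all listed Ifit3, at 88.7 to 2176 CPM with a median of 648. Summed over cells, Ifit3 stood at 896 CPM in the 34 naive cells that listed it and at 734 CPM in the pretreated cells. Among the pretreated cells, 77 used a window 1 bp from the annotated start, 8 used the window of the naive cells and 1 used a window 401 bp upstream, with 1 cell counted under more than 1 window. For this difference in windows, an effect of the pretreatment and the making of the files cannot be told apart. The nearest Ifit3 window outside the rule lay 2083 bp from the start, so no window stood close to the distance limit.

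The 2 sets differed in depth and in how many genes they listed. Total tags had a median of 1743479 (434956 to 3375314) in the cells with Ifit3 and 2491008 (305066 to 3857034) in those without. The cells with Ifit3 listed a median of 1816.5 genes (1286 to 2220) and the cells without it 2050.5 (506 to 2746). In 28 of the 34 cells with Ifit3, the number of genes was below the median of the other set. Mitochondrial tags made up a median of 0.853% of the tags in peaks with Ifit3 and 0.679% without it. Malat1, a nuclear RNA read here as a marker of RNA quality, was in all 92 cells, at 38880 CPM with Ifit3 and 22835 CPM without. The part of these gaps in the results that follow was not tested. Naive cell 31, in the set without Ifit3, stood apart: gene tags were 10.4% of its tags in peaks, against a median of 60.97% in its set.

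Markers of fibroblasts were present in both sets. Sparc, a matrix glycoprotein that is not among the 14 markers counted below, was listed in all 92 cells. Col1a1, which encodes a chain of type I collagen, was listed in 30 of 34 cells with Ifit3 and 55 of 58 without. Of 14 fibroblast markers 7 were listed in at least 20% of the cells. With Ifit3, 2 of the 7 were listed by a larger share of cells, 4 by a smaller and 1 by an equal share. By log2 ratio, 4 of the 7 were above 0 and 3 below. Col1a2 had the highest ratio, 1.26, and was listed by 19 and 30 cells, with and without Ifit3. S100a4 had the lowest, -1.20, or -0.18 over all windows, and was listed by 13 and 33 cells. Pdgfrb was listed by 5 and 18 cells. Among the sparse markers, Pdgfra was listed by 2 and 8 cells and Dcn by 2 and 1. Thy1 was in 0 and 1 cells and Fap in 0 and 0, in the sets with and without Ifit3. The summed fibroblast markers made up 0.209% to 0.701% of the gene tags of a cell with Ifit3 (median 0.373%) and 0.143% to 0.761% without it (median 0.338%). Of the 15 macrophage markers 9 were found in the annotation and 0 reached 20% of the cells. Their summed share was 0% to 0.0851% with Ifit3 and 0% to 0.0256% without, with medians of 0. Itgam, Aif1 and Laptm5 were at 0 in every naive cell, and Cd14 was listed by 9 and 6 cells with and without Ifit3. The epithelial, skeletal muscle and erythroid markers found in the annotation were at 0 in both sets, and no endothelial or neural marker reached the filter.

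Compared with the cells without Ifit3, the cells with Ifit3 listed most other interferon-responsive genes more often and cell division genes less often. Genes listed in at least 20% of the 92 cells were compared, 2917 in all besides Ifit3. A gene was called by share when the percentage of cells that listed it differed by at least 20 points, and by fold when the CPM of the summed tags differed at least 2-fold (log2 ratio of 1, with 0.5 tag added). By share, 58 genes (1.99%) were called higher and 352 (12.1%) lower with Ifit3. By fold, 207 (7.1%) were higher and 399 (13.7%) lower. The fold counts moved when 1 cell per gene was taken from 1 set. With the cell of most tags left out for each gene, they were 110 and 739 when that cell came from the set with Ifit3. They were 324 and 293 when it came from the set without. Removal from 1 set alone lowers the sums of that set, so the direction of these shifts was fixed in advance. With a top cell per gene removed from both sets at once, 169 genes were higher and 553 lower. This removal is not balanced either, since 1 of 34 cells is a larger part of a set than 1 of 58. With it the median log2 ratio over all genes was -0.21. In the main comparison the median gene differed by -4.77 points and by -0.08 in log2 ratio. Of the 2917 genes, 1909 were listed by a smaller share of the cells with Ifit3, 852 by a larger share and 156 by an equal one. The 58 genes higher by share held 12 of the interferon list and 0 of the cell division list. The 352 lower genes held 0 of the interferon list, 14 of the cell division list and 12 ribosomal protein genes, and 323 were in no list. Among the 46 cells with a depth in the middle range (15 with Ifit3, 31 without), 164 genes were higher by share, and among the 46 cells with a middle number of genes listed 200 were. In a further setting, 82 cells were thinned to 924320 total tags and the peak minimum was applied again. These were 29 cells with Ifit3 and 53 without, and 68 genes were higher and 381 lower by share. The last genes inside the share rule stood at 20.3 points and the first outside at 19.9.

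**Figure D1:**
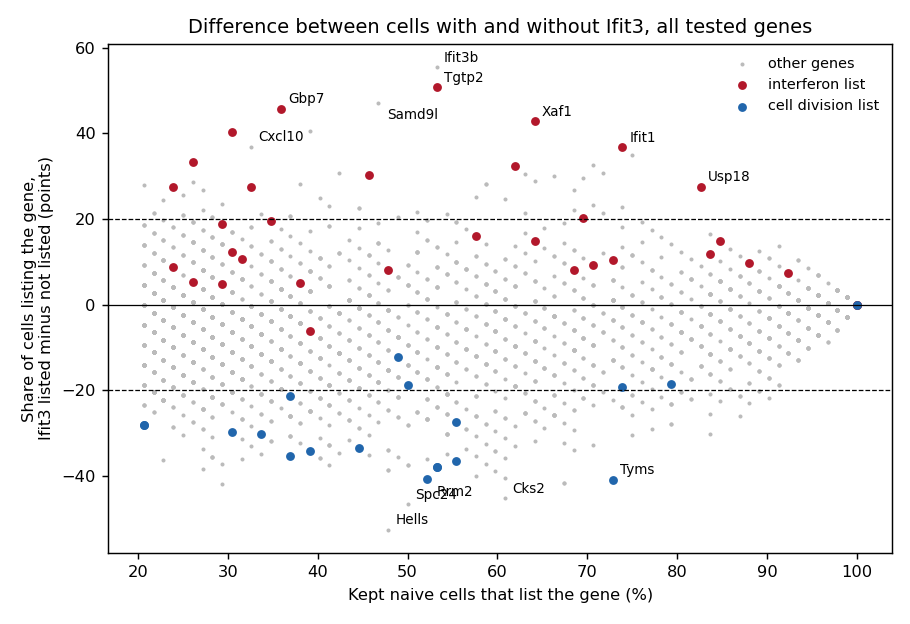
Each point is 1 of 2917 genes, placed by the percentage of the 92 kept naive cells that list it (horizontal axis) and by the difference in that percentage between cells with and without Ifit3 (vertical axis, percentage points). Red points are the interferon list, blue points the cell division list, and dashed lines mark 20 points in either direction. Ifit3b stands highest at 55.5 points and Hells lowest at -52.5.

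The interferon list held 85 genes without Ifit3 and its near copy Ifit3b. Of these, 33 passed the filter, and 30 of the 33 were listed by a larger share of the cells with Ifit3, 2 by an equal share and 1 by a smaller share. Their median difference was 14.8 points and their median log2 ratio 1.34, against -4.77 points and -0.08 over all genes. Past the thresholds were 12 genes by share and 21 by fold, all higher with Ifit3, where 1.99% and 7.1% of all genes were. The log2 ratio was above 0 for all 33. Among cells with a middle number of genes listed the median log2 ratio was 0.89, and the median difference 17.4 points. In the thinned cells the median difference was 14.8 points. The genes of this list that did not pass the filter were sparse. Gbp2, a guanylate-binding protein, was listed by 13 and 3 cells, Zbp1, a sensor of Z-form nucleic acid, by 10 and 2, and Ifi44 by 10 and 6, with and without Ifit3. Oas2, an oligoadenylate synthetase, was listed by 0 naive cells and 53 pretreated cells.

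The list can also be read cell by cell. In the cells with Ifit3 it took 0.763% to 5.41% of the gene tags, with a median of 2.20%, and in the cells without Ifit3 0.419% to 2.71%, with a median of 1.28%. The sets overlapped, but 30 of the 34 cells with Ifit3 were above the median of the others and 8 were above their highest cell. The number of list genes was 18 to 38 per cell with Ifit3 (median 27) and 7 to 30 without (median 18.5). By that count 33 of 34 cells were above the median of the other set and 11 above its highest cell, although these cells listed fewer genes in all. Without the Ifit and Ifitm genes, the median shares were 0.984% and 0.395%. The kept pretreated cells stood at 0.779% to 5.96% with a median of 3.72%. Their files listed no mitochondrial tags, unlike those of the naive cells. An effect of the pretreatment and one of file production cannot be told apart, and no fold is given.

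**Figure D2:**
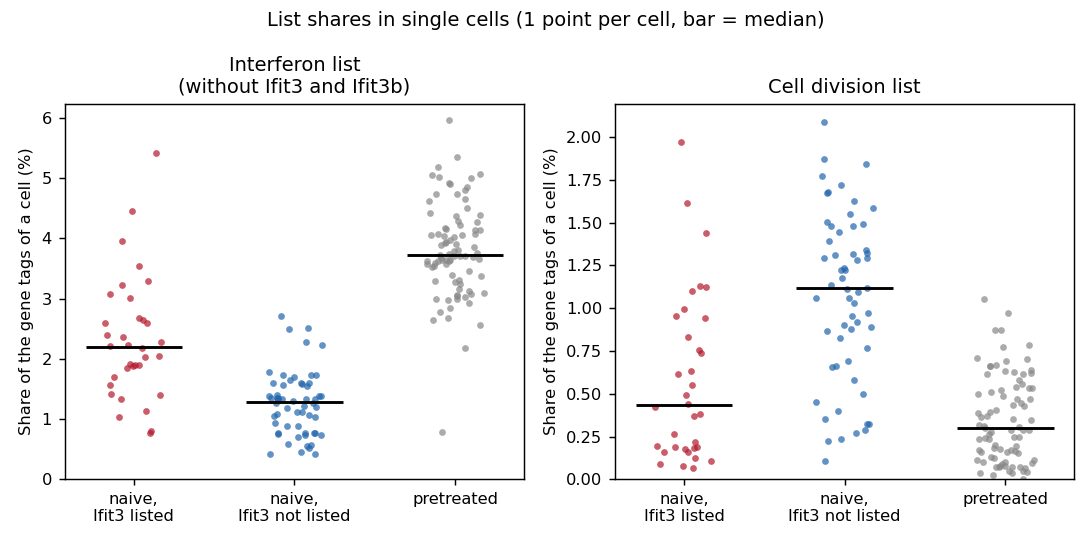
Each point is 1 cell, and bars are medians over 34 naive cells with Ifit3, 58 without and 85 pretreated cells. The vertical axes give the percentage of the gene tags of a cell in the interferon list (left, without Ifit3 and Ifit3b) and in the cell division list (right). Medians of the interferon list were 2.20%, 1.28% and 3.72%, and those of the cell division list 0.432%, 1.12% and 0.301%.

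Among genes listed more often with Ifit3, the largest differences in share were those of Ifit3b and Tgtp2, and the strongly listed targets Ifit1, Usp18 and Cxcl10 were higher as well. Ifit3b, a neighbouring gene with a nearly identical sequence, was listed by 30 of 34 cells with Ifit3 (88.2%, exact 95% binomial interval 72.5 to 96.7) and by 19 of 58 without (32.8%, 21.01 to 46.3). In single cells it ranged from 0 to 3515 CPM with a median of 599 in the first set, and from 0 to 1232 CPM with a median of 0 in the second. The summed level was 839 against 91.4 CPM, a log2 ratio of 3.20. In the transcripts of GENCODE, 66.1% of the 25-base words of Ifit3 also occur in Ifit3b, so tags may be assigned to the wrong member of the pair and the Ifit3b values are uncertain. Ifit3b used chr19:34682351-34682500 (mm9, + strand) for 99.3% of its tags in the cells with Ifit3. Listing of the pair was not identical: 4 cells listed Ifit3 alone and 19 listed Ifit3b alone.

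Ifit1, which binds RNA that lacks the cap modification of the host, was listed by 33 of 34 cells with Ifit3 (97.1%, 84.7 to 99.9) and 35 of 58 without (60.3%, 46.6 to 72.9). It reached 6995 CPM with a median of 1441 in the cells with Ifit3, and 2081 CPM with a median of 152 in the others. The summed levels of 2331 and 305 CPM differed by a log2 ratio of 2.94. No 25-base word of the Ifit3 transcript occurred in Ifit1. Its main start window, chr19:34715304-34715453 (mm9, + strand), lay 1 bp from the annotated start and took 99.7% of the Ifit1 tags with Ifit3 and 87.4% without. Ifit1 was thus frequent in both sets and higher in the set with Ifit3.

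Usp18 encodes a protease that removes ISG15 from proteins and dampens signalling from the interferon receptor. All 34 cells with Ifit3 listed it (89.7 to 100), as did 42 of 58 without (72.4%, 59.1 to 83.3). The lowest cell with Ifit3 had 149 CPM, the median was 872 and the highest 4544. In the cells without Ifit3 the range was 0 to 1305 CPM with a median of 241. The log2 ratio of the summed levels, 1246 and 293 CPM, was 2.09. The window chr6:121195881-121196030 (mm9, + strand), 31 bp from the annotated start, held 77.5% of its tags with Ifit3 and 71.3% without.

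Tgtp2, a GTPase of the immunity-related family that acts on the vacuoles of intracellular parasites, showed the largest difference after Ifit3b among the genes listed more often with Ifit3. It was listed by 29 of 34 cells with Ifit3 (85.3%, 68.9 to 95.05) and 20 of 58 without (34.5%, 22.5 to 48.1). The range was 0 to 12135 CPM with a median of 469 in the first set and 0 to 5523 CPM with a median of 0 in the second. The 5523 CPM were those of naive cell 31, which had few gene tags, and the next highest cell without Ifit3 had 810 CPM. A single cell held 27.4% of the tags of the first set, and the log2 ratio of the sums (1328 and 115 CPM) was 3.54. Its copy Tgtp1, which was listed in no cell, shares 84.6% of its 25-base words with Tgtp2, so the 2 genes cannot be told apart here. Of the 85 pretreated cells 7 listed Tgtp2, where an effect of the pretreatment and the making of the files cannot be told apart.

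Cxcl10, a chemokine that attracts activated T cells, had the highest log2 ratio of the genes named here, 4.44. It was listed by 19 of 34 cells with Ifit3 (55.9%, 37.9 to 72.8) and 11 of 58 without (18.97%, 9.87 to 31.4), and the summed levels were 924 and 42.4 CPM. Its level was uneven: the cells with Ifit3 ranged from 0 to 6926 CPM with a median of 139, and 1 cell held 37.6% of their tags. Without that cell the log2 ratio was 3.84. Ccl2 and Ccl7, which attract monocytes, were listed in all 92 cells with log2 ratios of 0.22 and 0.30. Ccl5, which attracts T cells and monocytes, was listed by 10 and 16 cells with a log2 ratio of 1.51. A single cell held 40.1% of the Ccl5 tags with Ifit3, and without it the ratio was 0.80, below the fold threshold. Cxcl12, the ligand of CXCR4, was listed by 31 and 58 cells. Of the 8 chemokine and cytokine genes that passed the filter, Cxcl10 was the only 1 called by share. Over all genes 1.99% were higher and 12.1% lower by share. Cxcl10 was higher by fold, as was Ccl5 with its top cell included, against 7.1% of all genes. The median difference of the 8 genes was 0.

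**Figure D3:**
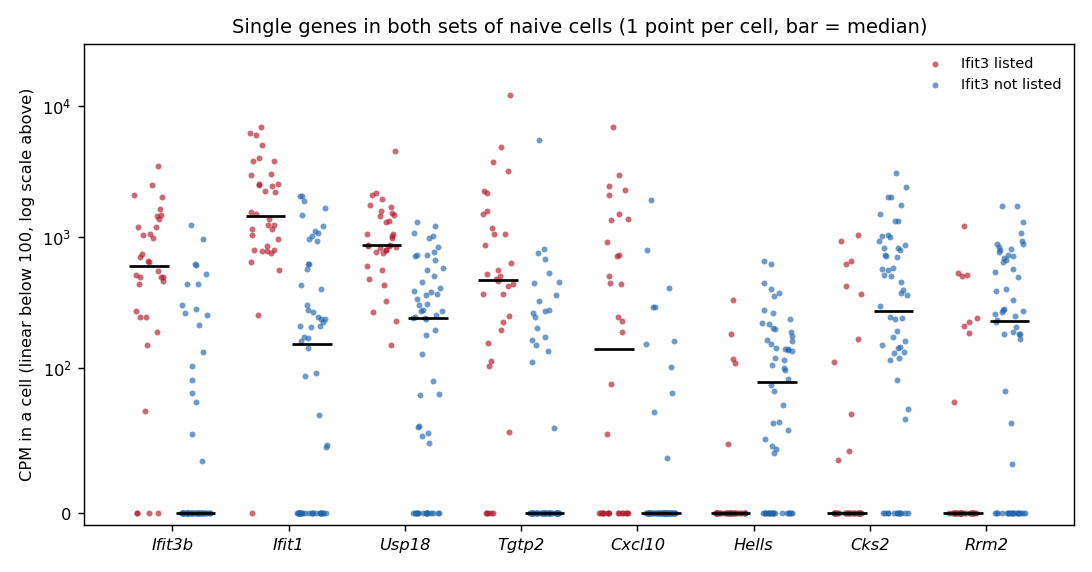
Each point is 1 of 34 naive cells with Ifit3 (red) or 58 without it (blue), and bars are medians. The vertical axis is CPM, linear below 100 and logarithmic above, so that cells at 0 are visible. The medians of Ifit1 were 1441 and 152 CPM and those of Usp18 872 and 241, while Hells had a median of 0 with Ifit3 and 90.3 without.

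Ifit1, Ifit3b, Usp18 and Tgtp2 were often listed together. All 4 were present in 27 of the 34 cells with Ifit3 and in 10 of the 58 without. Cells that listed 0 of the 4 numbered 13 without Ifit3 and 0 with it. Of the remaining cells without Ifit3, 7 listed 1 of these genes, 15 listed 2 and 13 listed 3. Absence of Ifit3 therefore did not separate cells with no interferon-responsive transcripts from the rest. By the phi coefficient of listing over the 92 cells, which is 1 for identical patterns, the genes most like Ifit3 were Ifit3b at 0.54, Tgtp2 at 0.49, Samd9l at 0.46, Gbp7 at 0.46 and Xaf1 at 0.43. Within the 34 cells, the level of Ifit3 and the share of the interferon list had a Spearman rho of 0.50. The rho with single genes was 0.46 for Ifit3b, 0.45 for Tgtp2, 0.39 for Ifit1, 0.33 for Usp18 and 0.16 for Cxcl10. These are descriptions over cells that share their library preparation and scaling, and the rho of Ifit3 with total tags was 0.30.

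Samd9l, Xaf1, Ifi203, Il1rn and Smim14 were also called higher by share. Samd9l, a factor that restricts poxviruses, was listed by 26 of 34 cells with Ifit3 (76.5%, 58.8 to 89.2) and 17 of 58 without (29.3%, 18.1 to 42.7), with summed levels of 99.3 and 22.9 CPM. Xaf1, a pro-apoptotic interferon target, was listed by 31 and 28 cells, a difference of 42.9 points, with a log2 ratio of 1.51. Ifi203, of the family of DNA-binding p200 proteins, was listed by 19 and 9 cells, at 96.3 and 21.2 CPM. Il1rn encodes the antagonist of the interleukin-1 receptor and was in no list; 33 and 36 cells listed it, with summed levels of 1037 and 419 CPM. Smim14, a small membrane protein, was listed by 22 and 14 cells with a log2 ratio of 1.91. Among cells with a middle number of genes listed, the log2 ratios of Xaf1, Smim14 and Il1rn were 0.82, 0.96 and 0.74. Samd9l and Ifi203 were listed by 0 of 85 pretreated cells, where their absence and the making of the files cannot be told apart.

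Of the interferon-induced GTPases 5 passed the filter, and all 5 were higher with Ifit3 by fold and 3 by share, against 7.1% and 1.99% of all genes. The median log2 ratio was 1.55. Gbp7, a guanylate-binding protein, was listed by 22 of 34 and 11 of 58 cells, a difference of 45.7 points. Among cells of middle depth that difference was 17.4 points and its log2 ratio was 0.31 instead of 1.44. Ifi47, an immunity-related GTPase, was listed by 16 and 8 cells with a log2 ratio of 2.99, or 3.61 without the 1 cell with the most Ifi47 tags in the set without Ifit3. Irgm1, a regulator of this family, was listed by 32 and 46 cells at 933 and 319 CPM. Mx2, which interferes with viral replication, was listed by 14 and 13 cells at 108 and 37.1 CPM, but its log2 ratio was 0.04 among cells with a middle number of genes listed.

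**Figure D4:**
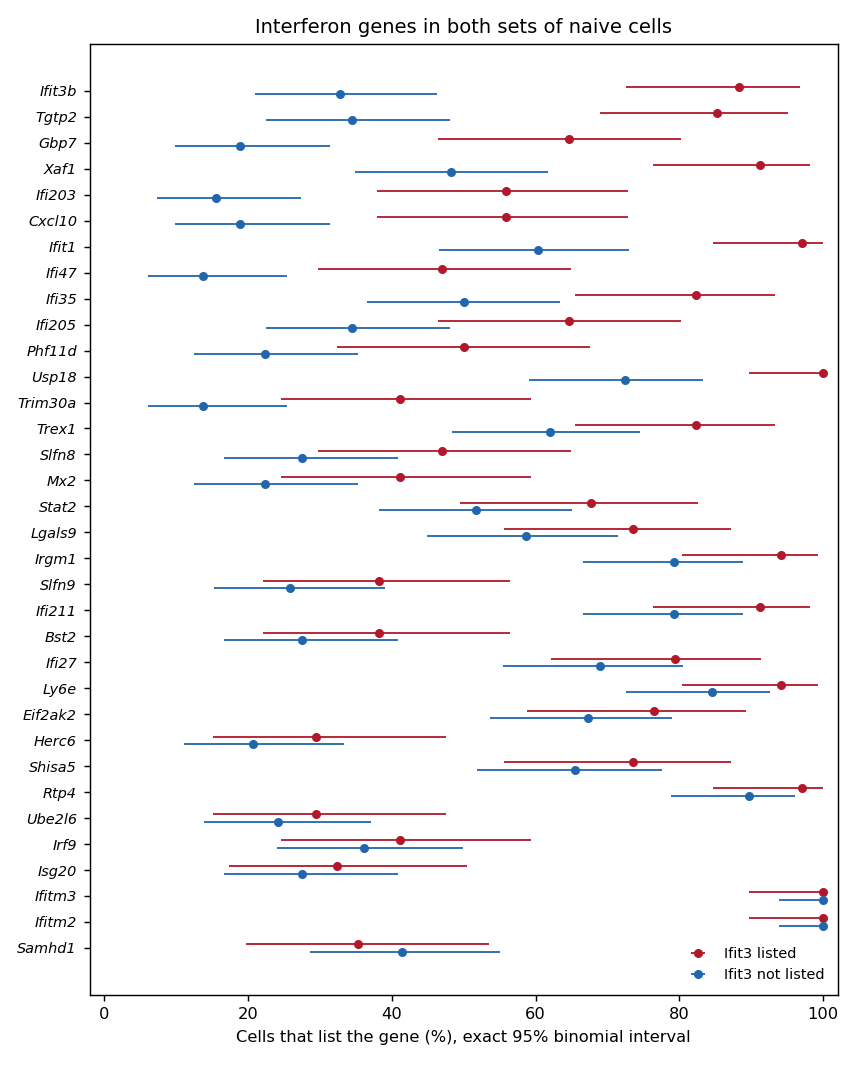
Points give the percentage of cells that list each gene, with exact 95% binomial intervals, for 34 naive cells with Ifit3 (red) and 58 without (blue). Shown are genes of the interferon list that passed the filter, with Ifit3b and Cxcl10. The points stand farthest apart for Ifit3b (88.2% and 32.8%), while Ifitm3 and Ifitm2 were listed in every cell of both sets.

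Of 14 genes of receptor signalling 6 passed the filter, with a median difference of 6.54 points. Usp18 was the only one called by share, where 1.99% of all genes were higher and 12.1% lower. Usp18 was also higher by fold, as were 7.1% of all genes. Stat2 was listed by 23 of 34 and 30 of 58 cells with a log2 ratio of 0.47. Irf9 was listed by 14 and 21 cells with 0.86, the kinase gene Jak1 by 13 and 24 with 0.95, and Ptpn2, a phosphatase that acts on JAK proteins, by 21 and 36 with 0.41. The intervals of the shares of these 4 genes overlapped widely between the sets. Irf2, a repressor of interferon responses, was listed by 29 and 34 cells, a difference of 26.7 points that was 12.3 among cells with a middle number of genes listed. Irf1, an early activator, was listed by 14 and 25 cells and its log2 ratio was -1.35. That ratio lay between -0.33 and -0.65 in 3 alternatives.

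Ifitm3 and Ifitm2, membrane proteins that block viral entry, were listed in all 92 cells. Ifitm3 ranged from 2403 to 21203 CPM with a median of 7020 in the cells with Ifit3 and from 1341.5 to 11891 CPM with a median of 5645 in those without. The log2 ratios were 0.57 and 0.61, below the fold threshold. The genes of antigen presentation on MHC class I were mixed. Of the 7 that passed the filter, 2 were called higher by share, against 1.99% of all genes, and 0 by fold. Psme1, a proteasome activator subunit, was listed by 28 and 35 cells, a difference that was 15.5 points at a middle number of genes. Tapbp, which helps to load peptides, was listed by 14 and 9 cells. The log2 ratio of Tapbp was -0.79, but 1 cell held 70.1% of its tags in the set without Ifit3, and without that cell the ratio was 0.92. The Tapbp difference of 25.7 points fell below the threshold in 7 alternatives, the lowest being 11.96. B2m, the invariant light chain, was listed by 34 and 57 cells. Ifnb1, the gene of interferon-beta itself, was listed by 0 naive cells.

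Genes of cell division were listed less often in the cells with Ifit3. Of 32 such genes 19 passed the filter, and 18 of these were listed by a smaller share of the cells with Ifit3 and 1 by an equal share. The median difference was -29.6 points and the median log2 ratio -1.62. By share 14 were called lower and by fold 12, against 12.1% and 13.7% of all genes. In single cells the list took 0.0674% to 1.97% of the gene tags with Ifit3 (median 0.432%) and 0.110% to 2.09% without it (median 1.12%). The ranges overlapped, and 29 of the 34 cells with Ifit3 were below the median of the other set. The number of division genes listed moved with the number of all genes listed, at a rho of 0.75 over the 92 cells. Among cells of middle depth the median difference was -17.8 points and the median log2 ratio -0.73. Among cells with a middle number of genes listed they were -20 points and -0.84. In the thinned cells the median difference was -30.1 points.

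Hells, Cks2, Cdca8 and Spc24 are not members of the cell division list and are named for being among the 10 lowest differences. Hells, a helicase needed for DNA methylation during replication, had the lowest difference of all genes, -52.5 points. It was listed by 5 of 34 cells with Ifit3 (14.7%, 4.95 to 31.1) and 39 of 58 without (67.2%, 53.7 to 78.99), and its summed levels were 16.4 and 127 CPM. Its highest cell had 330 CPM with Ifit3 and 661 CPM without. Cks2, a subunit of cyclin-dependent kinase complexes, was listed by 11 and 45 cells. Its median was 0 CPM with Ifit3, where the highest cell had 1035, and 272 CPM without, where the highest had 3116. Cdca8, of the complex that corrects chromosome attachment, was listed by 1 of 34 cells with Ifit3 and 26 of 58 without. Spc24, of the outer kinetochore, was listed by 7 and 39 cells with a log2 ratio of -2.45.

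Enzymes and factors of DNA replication were lower as well. Tyms, which makes thymidylate, was listed by 16 and 51 cells, at 116 and 414 CPM. Rrm2, a subunit of ribonucleotide reductase, was listed by 9 and 39 cells with a log2 ratio of -2.25, or -3.10 without the cell with the most Rrm2 tags in the set with Ifit3. Pclaf, which binds the sliding clamp PCNA, is not in the cell division list and is named for its low difference. It was listed by 16 and 51 cells with a log2 ratio of -1.63, or -0.98 at a middle number of genes. Mcm7, a subunit of the replicative helicase, was listed by 10 and 39 cells, a difference of -37.8 points that was -17.8 among cells of middle depth. Hmgb2, a chromatin protein of dividing cells, was listed by 10 and 39 cells with a log2 ratio of -1.90. H2afz, a histone variant, was listed in every cell, and Stmn1, a microtubule regulator, was the only one of the 19 genes with a log2 ratio above 0, at 0.43.

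**Figure D5:**
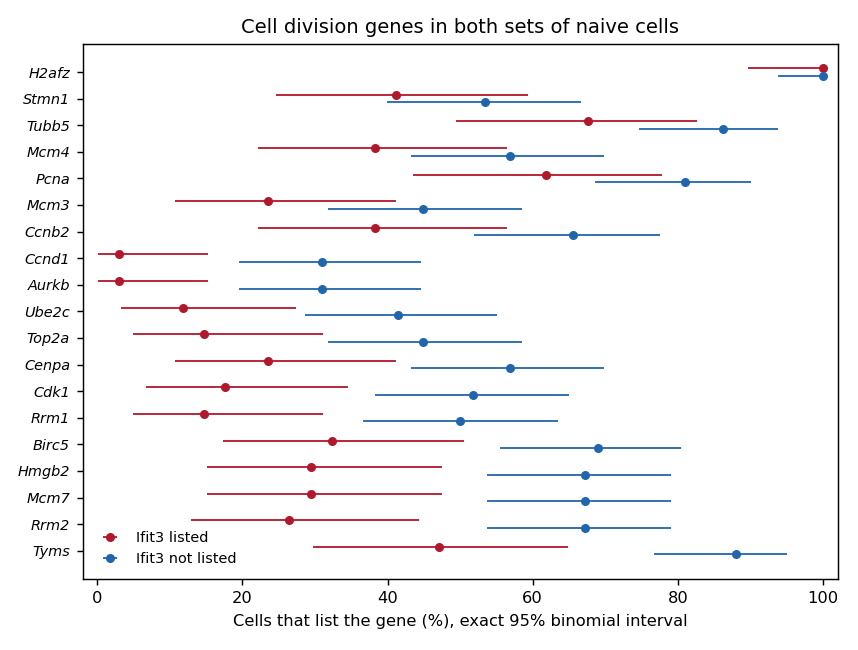
Points give the percentage of cells that list each of the 19 cell division genes that passed the filter, with exact 95% binomial intervals, for 34 naive cells with Ifit3 (red) and 58 without (blue). For Tyms the percentages were 47.1% and 87.9%, and for Rrm2 26.5% and 67.2%.

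The shares of the interferon and cell division lists ran in opposite directions across cells. Spearman's rho between them was -0.61 over the 92 cells, -0.60 within the 34 cells with Ifit3 and -0.42 within the 58 without. Counted as genes listed instead of tag shares, the rho values were -0.46, -0.29 and -0.18. The 2 tag shares have a common denominator in each cell, and these values are descriptions over cells.

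Other genes were split in both directions. Among 73 ribosomal protein genes that passed the filter, 12 were called lower by share, against 12.1% over all genes, and 0 higher, with a median difference of -6.59 points against -4.77 over all genes. Rpl18 was the lowest, listed by 12 and 44 cells with a log2 ratio of -1.76, while Rps18 was listed by 15 and 42 cells with a log2 ratio of -0.03. By the GENCODE table the Rps18 difference was -7.61 points instead of -28.3. Ribosomal protein genes took a median of 4.45% of the gene tags of a cell with Ifit3 and 5.01% without. Pnn, a protein of the splicing machinery, and Tmem97, a sterol-regulated membrane protein, were each listed by 14 and 48 cells, with log2 ratios of -1.90 and -1.13.

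Glycolysis genes showed no called difference. All 11 that passed the filter stayed inside both thresholds, and their median difference was 0 points. Over all genes, 1.99% were called higher and 12.1% lower by share, and 7.1% and 13.7% by fold, so few calls would be met among 11 genes. Hk2, which commits glucose to the pathway, was listed by 33 and 54 cells. Of 16 matrix genes that passed, 0 were called by share, and 3 were higher by fold, against 7.1% of all genes. Col6a2, a chain of collagen VI, was listed by 13 and 11 cells at 63.1 and 15.2 CPM, and a single cell held 40.5% of its tags with Ifit3. Its log2 ratio was 2.05, or 1.38 without that cell, 2.68 without the cell with the most Col6a2 tags in the other set and 0.81 over all windows. Thbs1, a matrix protein that binds many ligands, was listed by 22 and 26 cells with a log2 ratio of 1.46, or 0.40 over all windows. Of the 11 contractile genes 1 was called lower by share, no larger a part than the 12.1% of all genes. This was Cnn1, a regulator of smooth muscle contraction, listed by 18 and 43 cells, with a difference of -21.2 points that was -7.74 at middle depth.

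Of 9 immediate early genes, Fos, a subunit of the AP-1 factor, was called higher by share, against 1.99% of all genes. It was listed by 25 and 28 cells at 360 and 166 CPM, a log2 ratio of 1.12 that fell below 1 in 4 alternatives. The ratio was 0.90 without the cell with the most Fos tags in the set with Ifit3 and 0.97 by the GENCODE table. Over all windows it was 0.67, and among cells with a middle number of genes listed 0.29. The Fos difference of 25.2 points fell below 20 in 4 alternatives, the lowest being 17.7. Zfp36, which destabilises cytokine mRNA, was listed by 13 and 13 cells with a log2 ratio of 1.66, or 0.74 at middle depth. Fosl1 went the other way. It was listed by 6 and 17 cells at 26.5 and 93.6 CPM, a log2 ratio of -1.82, or -0.99 as the mean of cells. Of the 9 genes, 4 were listed by a larger share of the cells with Ifit3 and 5 by a smaller share. By fold 2 were higher and 1 lower, against 7.1% and 13.7% of all genes. Among 12 genes of protein folding and stress, 2 were called lower by share, near the 12.1% of all genes. Hsp90aa1, an inducible chaperone, was listed by 14 and 40 cells, a difference of -27.8 points that turned to 1.94 among cells with a middle number of genes listed. Ddit3, a transcription factor of the unfolded protein response, was listed by 6 and 22 cells, a difference of -20.3 points that missed the threshold in 4 alternatives. Nfkbia and Vcam1, targets of NF-kB, had log2 ratios of 0.11 and 0.58, and neither was called.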

How the data were processed

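Each cell had 1 peak file. Peaks were called per cell and strand with HOMER (150 bp, minimum 200 tags per 10000000), per the file headers. Bowtie2, HOMER and mm9 are named per the submitters' processing notes; versions, filters and duplicate handling are not given in the sources used here. The deposited signal of each peak is a tag count scaled to 10000000 tags per cell, and the deposited focus ratio is a fraction used only as a quality value. Tags were recovered as signal times header total divided by 10000000, and all 1082504 peaks came out whole within 0.1 tag or the rounding of the file. They are reads, not molecules, so intervals cover counting error only. Of these peaks 1080791 joined a RefSeq-annotated window within 2 bp. Gene tags, CPM and thresholds are as in the results, and Ifit3 was left out of the denominators of the comparison. Of 96 naive cells 92 were kept, with 305066 to 3857034 total tags, and no 2 cells of the series shared their totals. No doublet caller was run, and 2 deposited matrices with 384 unnamed columns were not used. Symbols were matched to RefSeq and GENCODE.

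Shares carry exact Clopper-Pearson intervals at 95%. Named genes were the members of the Ifit and signalling lists that passed the filter, up to 4 per other list with the largest difference in share, the 10 highest and 10 lowest differences and the 5 highest phi values; 1 gene that the rule names is not reported here; other list genes are named for counts or as examples chosen after their values were seen. The members, lists and rules were chosen with earlier results of these data known. Alternatives were other windows, annotations, filters, scalings, thinned tags and sets of cells. Middle depth and middle number of genes mean the 25th to 75th percentile of the kept naive cells; the latter, the removal of naive cell 31 or of the cell with the most tags of a gene in 1 set, and all alternatives for the cell division list were chosen after seeing the data. The comparison was tested on simulated data. Python 3.11.15, pandas 2.3.3, numpy 2.4.6 and scipy 1.17.1 were used.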

Additional observations from a re-analysis of the deposited data

Results flagged for a closer look

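Tags of Ifit3 also lay far from its start, outside the windows used for the split. Of the 58 cells without Ifit3 near its start, 6 (10.3%, exact 95% binomial interval 3.89 to 21.2) listed at least 1 Ifit3 peak more than 1000 bp downstream on the strand of the gene, with 949 tags between 2471 and 5132 bp. Such peaks were listed by 15 of 34 cells with Ifit3, with 16138 tags, and by 56 of 85 pretreated cells. No cell of these sets listed one on the other strand. A further 5 cells without Ifit3 near its start listed a peak only upstream, in windows 9050 to 13240 bp before the start that are annotated to Ifit3. With Ifit3 read at any distance, these 11 cells would join the set with Ifit3, which gives 45 cells with Ifit3 and 47 without.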

How the results depend on the processing

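No paired analysis was possible because the cell number only names a cell and no test was run. With 1 sample of cells per set, no alternative stands for a replicate, and only peaks above the calling minimum are listed, so a gene below it cannot be told from one at 0. The settings for middle depth and middle number of genes leave 15 and 31 cells, whose shares move in larger steps; the cause of each move was not tested. Genes higher by share, 58 in the report, numbered 137 over all RefSeq windows, 34 among genes in at least 40% of cells, 164 at middle depth and 200 at a middle number of genes. Genes lower by share, 352, numbered 206 among genes in at least 40% of cells. By fold, all RefSeq windows gave 520 higher and 693 lower genes, against 207 and 399. Leaving out the cell with the most tags of each gene in 1 set gave 110 higher and 739 lower (set with Ifit3) or 324 higher (set without). The direction of these moves followed from the set that lost the cell. Removal of a top cell per gene from both sets gave 169 higher and 553 lower. It takes a larger part of the smaller set, and the median log2 ratio over all genes went from -0.08 to -0.21. The median difference of the interferon list, 14.8 points, was 20.7 over all windows. Its median log2 ratio, 1.34, was 1.29 by header totals, 1.43 by median-of-ratios scaling, 1.13 as the mean of cells, 1.29 without the highest cell of each gene in both sets, 1.07 or 1.499 without the cell of most tags in the set with or without Ifit3, 1.35 by the GENCODE table, 1.19 at middle depth, 1.28 in cells with at least 25% of the median total and 0.89 at a middle number of genes. The median difference of the cell division list, -29.6 points, was -17.8 at middle depth, -34.6 with Ifit3 read at any distance or by GENCODE and -20 at a middle number of genes. Its median log2 ratio, -1.62, was -1.67 by header totals, -1.54 by median-of-ratios scaling, -1.16 as the mean of cells, -1.94 without the highest cell in both sets, -2.01 or -1.497 without the cell of most tags in the set with or without Ifit3, -1.59 with 50 tags added, -1.77 over all windows, -1.37 by GENCODE, -0.73 at middle depth, -1.61 in cells with at least 25% of the median total, -1.57 in all 96 cells and -0.84 at a middle number of genes. The difference in the median share of gene tags in the interferon list, 0.914 points, was 0.95002 with only Ifit3 left out, 0.589 without Ifit and Ifitm genes, 0.849 at middle depth and 0.929 without naive cell 31. Of 887 values of the share difference over 71 named genes 878 moved by less than the counting interval, 8 moved by more and 1 reversed at a middle number of genes (Hsp90aa1, 1.94 points). Of 1052 log2 ratios of these genes 483 stayed within it, 569 moved and 0 of those called reversed. The interval of the share differences is wide, and values inside it could still lose their call. Rps18 went from -28.3 to -7.61 points by GENCODE and Hsp90aa1 from -27.8 to -6.29 over all windows. Cnn1 went from -21.2 to -7.74 points at middle depth.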

Other observations

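Of the 58 genes called higher by share, 40 were in none of the lists. The genes named here were chosen after their values were seen, and their names form no list that was tested. Several encode enzymes of detoxification and redox balance: Mgst3 was listed by 29 and 32 cells, Mgst1 by 26 and 28, the carbonyl reductase Cbr2 by 28 and 30 and the peroxidase Gpx7 by 29 and 36, with and without Ifit3. Aspn, a small matrix proteoglycan, was listed by 31 and 34 cells, a difference of 32.6 points with a log2 ratio of 2.08. Map3k8, a kinase of inflammatory signalling, was listed by 13 and 6 cells, and Ctsd, a lysosomal protease, by 26 and 30.

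Of the 352 genes called lower, 323 were in none of the lists. By background knowledge some of these also act in cell division: Smc2, a condensin subunit, Kif20b, a mitotic kinesin, Spc25, of the outer kinetochore, and Dnajc9, a histone chaperone. Others encode parts of the mitochondrial ribosome, among them Mrpl4 and Mrps15. The cell division list of the report therefore covers only some of the division genes that were lower.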
